A study of Rattus norvegicus with 6 samples.

Results

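Accessible chromatin sites near 10 genes that make, process and store the hormones of the pancreatic β-cell were compared between adult and 10-day-old (P10) rat islets. The genes were Ins1, Ins2, Iapp, Pcsk1, Pcsk2, Cpe, Chga, Chgb, Scg2 and Scg3, and their members were all accessible sites (ACSs) that the deposited quantification assigned to them as the nearest gene. The gene symbol column gave 87 sites for 7 of the genes. Another 68 sites were found by gene identifier, because Cpe and Chga had no symbol there and Pcsk1 stood under LOC100911216. Together these were 155 of 101603 sites. A site was assigned by distance, so a distant site is described here as lying nearest to a gene, with no statement on which gene it acts on.

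The libraries were ATAC-seq, in which the Tn5 transposase cuts and tags open DNA, made from dissociated whole islets of Sprague-Dawley rats, for which no treatment or transgene is named. Each of the 3 Adult libraries (replicates 4 to 6) came from a male rat of about 3 months, and each of the 3 P10 libraries (replicates 1 to 3) from a litter, as a mix of a few male and female pups. Age, sex and single rat against pooled litter therefore differed together and cannot be told apart. The islets were not sorted, so a change in the share of a cell type and a change within its cells cannot be told apart either. The Adult libraries held 7916919 to 11903909 counted cuts and the P10 libraries 13491534 to 21168463. Values below are counts scaled to library size (CPM) with TMM factors, which set the bulk of the sites equal between libraries.

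Insulin is made as a longer chain that is cut in the secretory granule. The convertases encoded by Pcsk1 and Pcsk2 make the cuts, and the carboxypeptidase of Cpe trims the ends. Rats carry 2 insulin genes: Ins2 is the ancestral gene, and Ins1 arose from it as a copy by way of RNA. Iapp encodes amylin, which is released with insulin. The granins chromogranin A (Chga), chromogranin B (Chgb), secretogranin II (Scg2) and secretogranin III (Scg3) are acidic proteins that take part in packing hormone into granules.

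The promoters of the 3 hormone genes are shown first, because the gene start sites of the insulin genes fell with age and that of Iapp did not. They run from 250 bases before to 50 bases after the gene start and come from RefSeq on the GRCr8 build, at chr1:261185869-261186168 on the plus strand for Ins1, chr1:207273756-207274055 on the minus strand for Ins2 and chr4:176967847-176968146 on the plus strand for Iapp. Capitals mark every match, on either strand, of the E box letters CAGATG, the A box letters TAATG, the cAMP response element TGACGTCA and the TATA box letters TATAAA. No 2 marked matches overlap in these sequences. By its Rn5 position the Iapp start site ended 266 bp upstream of the gene, outside the promoter shown.
Ins1: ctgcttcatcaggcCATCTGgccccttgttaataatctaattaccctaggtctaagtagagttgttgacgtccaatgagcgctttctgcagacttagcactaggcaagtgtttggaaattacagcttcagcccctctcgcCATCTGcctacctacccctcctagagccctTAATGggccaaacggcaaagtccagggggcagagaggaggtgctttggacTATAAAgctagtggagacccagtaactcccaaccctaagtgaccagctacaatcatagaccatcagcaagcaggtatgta
Ins2: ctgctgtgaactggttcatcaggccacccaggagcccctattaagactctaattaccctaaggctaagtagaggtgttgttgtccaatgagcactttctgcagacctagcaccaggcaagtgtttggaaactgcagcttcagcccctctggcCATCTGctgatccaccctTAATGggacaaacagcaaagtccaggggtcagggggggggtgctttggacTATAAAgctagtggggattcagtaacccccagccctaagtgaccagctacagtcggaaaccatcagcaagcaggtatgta
Iapp: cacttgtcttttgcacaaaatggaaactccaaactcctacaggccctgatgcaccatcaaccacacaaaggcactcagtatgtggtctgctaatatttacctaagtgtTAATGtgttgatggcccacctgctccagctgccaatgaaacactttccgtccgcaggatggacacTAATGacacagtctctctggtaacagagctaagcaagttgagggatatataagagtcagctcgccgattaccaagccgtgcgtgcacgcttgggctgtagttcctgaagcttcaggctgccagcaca

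The Ins1 and Ins2 promoters had 250 identical bases in 288 aligned without a gap (86.8%), and their longest identical run was 26 bases. The A box and TATA box letters stood at the same distance before both starts, 80 and 30 bases. Ins1 held 2 E box matches, 236 and 110 bases before the start, and Ins2 held 1, 98 bases before it. Iapp held 2 A box matches, 142 and 77 bases before the start, and no match of the letters CAGATG or TATAAA. Only these exact letters were searched for the TATA box. For the E box the longer letters GCCATCTG, which hold CATCTG, its other-strand reading, were searched too. In Ins1 they stood 238 and 112 bases before the start and in Ins2 100 bases before it. Of all promoters, 1.23% held them. Other spellings, such as tatataa or cagctg in the Iapp sequence, were not counted. Of all 33469 promoters of this length, 16.6% held the E box, 29.0% the A box, 14.2% the TATA box and 1.83% the cAMP response element. Promoters were given for 8 of the 10 genes, and the exact letters TGACGTCA were present in 1 of them, Scg2, 123 bases before its start. The shorter letters TGACG, with which this element begins, were present in 5 of the 8 and in 21.2% of all promoters. In Ins1 they stood 185 bases before the start, within tgacgtcc, which is not marked above. The absence of the exact letters therefore does not show that Ins1 lacks a variant of this element. Reads with mapping quality under 30 had been dropped by the authors, so read pairs that fitted both insulin genes equally well may be missing from both, and how many were lost is unknown.

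Over the 155 sites, 22 were more accessible in adults (Up) and 18 less accessible (Down), at p under 0.05 and FDR under 0.2 in edgeR's quasi-likelihood test across all sites. The Up calls made 14.2% of the sites of these genes against 12.3% of all sites, and the Down calls 11.6% against 6.63%. The median log2 fold change was -0.03 over the 155 sites and -0.01 over all sites. Every adult library was above every P10 library at 19 sites, and below at 23, where the shares over all sites were 13.8% and 10.9%. The split between directions depended on the scale. It was 22 Up to 18 Down with TMM, 17 to 27 with column sums as library sizes, 32 to 14 with TMM factors from gene start sites and 2 to 95 with total sequenced reads, which moved the median of all sites to -0.84. Within the symbol column alone the split was 7 to 16. The number of Up calls fell to 14 without Adult replicate 4 and to 13 without P10 replicate 2 or P10 replicate 3, where the Down calls numbered 18, 13 and 13. Without Adult replicate 6 there were 18 Up and 15 Down calls. The Up calls rose to 29 without Adult replicate 5 and to 32 without P10 replicate 1, with 17 and 18 Down.

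The genes divided the calls unequally. Over all sites 12.3% were Up and 6.63% Down. The 32 sites of Ins1 and Ins2 held 2 Up and 10 Down calls (6.25% and 31.2%), with a median log2 fold change of -0.45. The 71 sites of Pcsk1, Pcsk2 and Cpe held 12 Up and 4 Down calls (16.9% and 5.63%), with a median of 0.05. The 50 sites of the granin genes held 8 Up and 4 Down (16% and 8%), with a median of 0.08. The shares of these last groups were nearer to those of all sites than the Down share of the insulin genes. Iapp had 2 sites and no call by edgeR, also at an unadjusted p under 0.05, and 1 Up call by limma voom. These groups were set by the function of the genes, and the difference between them was not tested.

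**Figure D1:**
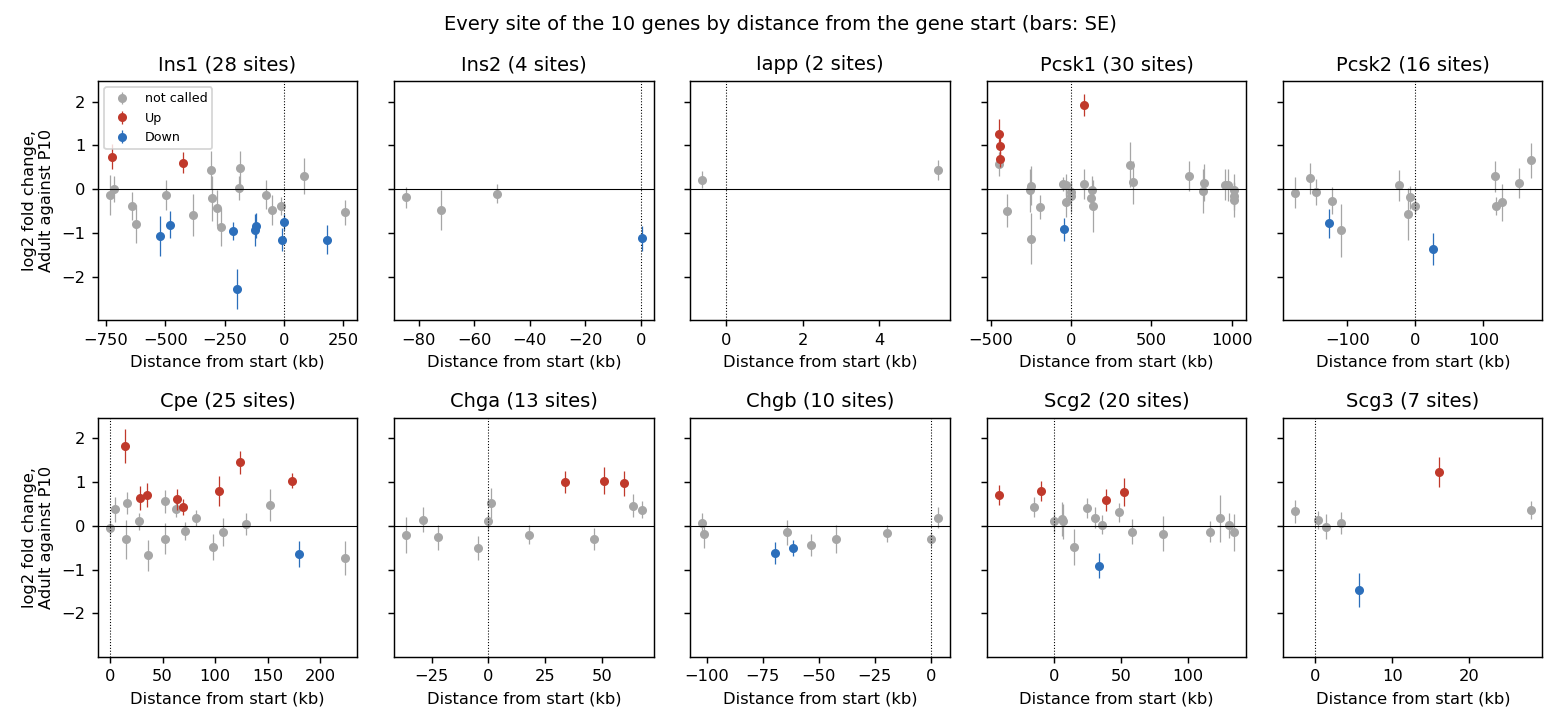
Log2 fold change of each of the 155 sites (vertical axis, Adult against P10, bars show SE) against its distance from the gene start in kb (horizontal axis, negative upstream), with a panel for each gene and its own distance scale. Ins1 has 9 Down and 2 Up sites, while Cpe has 8 Up and 1 Down. Of all sites, 12.3% were Up and 6.63% Down.

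Gene start sites came first, since they lie at or near the promoters. Of 11 start sites (class TSS), which lay within 947 bp of a start, 2 were Down and 0 were Up, against 7.87% Down and 2.73% Up among the 11055 start sites of all genes. At an unadjusted p under 0.05 edgeR gave 3 Down start sites, with Pcsk2 added, and 0 Up, and limma voom and DESeq2 each called 2 Down and 0 Up. Both Down sites belonged to the insulin genes.

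The Ins1 start site (chr1:280212808-280215521, Rn5) spans 2714 bp and holds the whole gene. It ranked 308 of all 101603 sites by mean CPM. It measured 94.4, 75.1 and 94.9 CPM in the Adult libraries and 203, 106 and 134 CPM in the P10 libraries. All adult values were below all P10 values, and P10 replicate 1 stood highest. The log2 fold change was -0.75 ± 0.18 (SE, n = 3 per age, edgeR adjusted p = 0.00742), and -0.46 without P10 replicate 1, still called Down (edgeR adjusted p = 0.0903).

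The Ins2 start site (chr1:222752546-222753191, Rn5) overlaps the start of the gene and was much weaker. Adult libraries gave 6.42, 5.06 and 4.25 CPM, and P10 libraries 17.7, 8.77 and 7.77 CPM. The ages did not overlap, and P10 replicate 1 was again the highest. The log2 fold change of -1.12 ± 0.29 (SE, edgeR adjusted p = 0.0133) became -0.66 without that library (edgeR adjusted p = 0.15). Both insulin start sites stayed Down in each of the 6 fits that left out 1 library and on every scale tried. Per kb of site, Ins1 had 32.5 CPM in adults and 54.4 in P10, and Ins2 8.12 and 17.7. The table's span of Cttn also covers all 4 sites listed for Ins2, which lies between Igf2 and Th there.

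The start sites of the other 8 genes were not called. Iapp measured 47.8, 28.5 and 40.3 CPM in adults and 41.1, 30.7 and 28.0 CPM in P10, with overlapping ages (log2 fold change 0.22 ± 0.19, edgeR adjusted p = 0.567). Its site lies just upstream of the gene, outside the promoter shown, and, per kb, was the most accessible of the 11 in adults, at 111 CPM. Pcsk2 measured 32.1, 24.9 and 27.5 CPM in adults and 45.4, 33.3 and 31.0 CPM in P10, overlapping only through Adult replicate 4 and P10 replicate 3 (-0.38 ± 0.18, edgeR adjusted p = 0.228). At Chgb the ages did not overlap, with 27.7, 21.8 and 29.1 CPM in adults and 37.0, 31.0 and 29.6 CPM in P10, but the difference did not pass the limits (-0.31 ± 0.18, edgeR adjusted p = 0.331).

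Cpe, Pcsk1, Chga, Scg2 and Scg3 starts lay closer to equality. Cpe had 44.4 ± 11.6 CPM in adults and 45.8 ± 4.73 in P10 (mean ± SD, n = 3 per age). The stronger of the pair of Pcsk1 start sites had 19.6 ± 1.12 and 20.5 ± 3.12 CPM. For Chga, Scg2 and Scg3 the log2 fold changes were 0.10, 0.10 and 0.14, with SEs of 0.22, 0.23 and 0.21. These are smaller than their errors, and a change of the size seen at Ins2 lies outside 2 SEs of each.

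**Figure D2:**
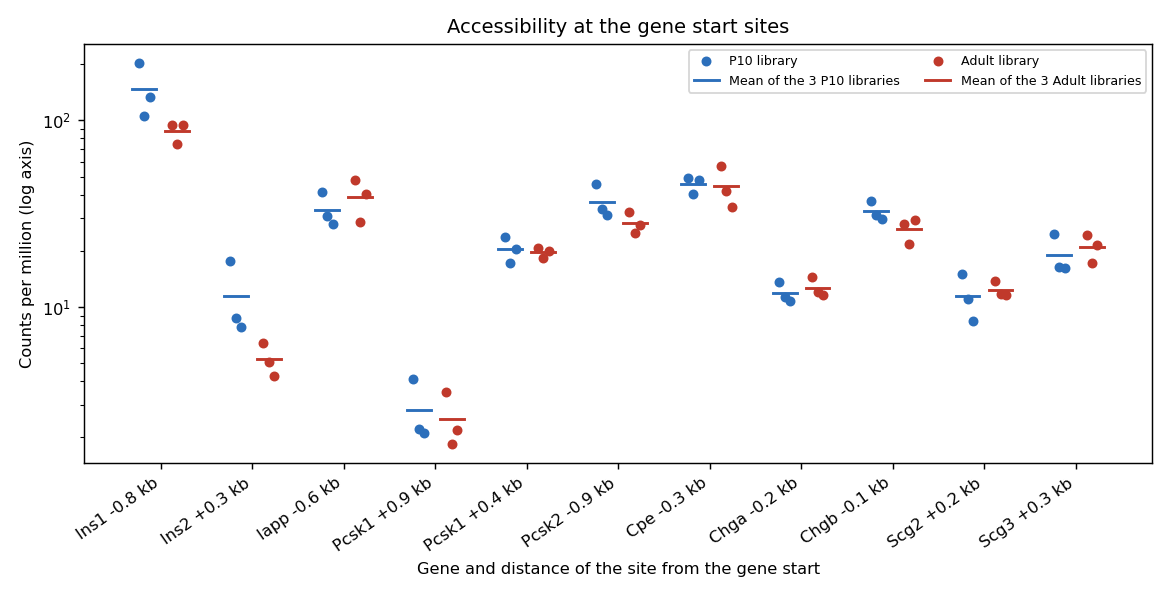
CPM on a log axis at the 11 gene start sites, with the gene and the distance of the site from the gene start along the horizontal axis. Dots are libraries and lines are the means of the 3 libraries of each age; only the adult libraries of Ins1, Ins2 and Chgb lie wholly below the P10 libraries.

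P10 replicate 1 had the highest value of the P10 libraries at 11 of the 11 start sites, against 50.5% of the start sites of all genes, and at 94 of the 155 sites (60.6%) against 36.2% of all sites. Its sum over the 11 start sites was 474 CPM, while the other P10 libraries had 308 and 336 and the Adult libraries 258 to 342. It was also the deepest library. The part of this library's makeup in the results was not tested, and values without it are given for several sites and gene totals.

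Markers of the islet cell types gave another reading of the libraries. Start sites of the β-cell list (Nkx6-1 and Pdx1 had any) summed to 40.3 to 54.5 CPM in adults and 38.2 to 53.3 in P10, and those of the α-cell list to 54.4 to 71.8 and 57.2 to 70.4. Start sites of the δ-cell list were lower in adults, at 11.6 to 13.7 against 17.6 to 25.6 CPM, with 2 of 3 sites Down. Both Down sites belonged to Hhex, and the Sst start site overlapped between ages and was not called (-0.44 ± 0.35). Duct start sites were lower too, at 25.7 to 28.4 against 36.9 to 43.9 CPM with 2 of 4 Down, and acinar start sites at 4.79 to 7.69 against 9.39 to 11.8 CPM with 1 of 3 Down. Endothelial (23.5 to 31.7 against 28.9 to 35.5), mesenchymal (12 to 19.3 against 15.3 to 20.5) and proliferation (111 to 120 against 108 to 126) start sites overlapped between ages and had no call. The immune genes had no start site, and Ppy, Mafa and G6pc2 had no site at all. Of these, the duct and acinar start sites, and the Hhex sites of the δ-cell list, were lower in adults beside the insulin start sites. Their part in the result was not tested.

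The same lists read over all of their sites went another way. Summed over all sites, duct (277 to 313 against 247 to 267 CPM), α-cell (582 to 685 against 487 to 574) and endothelial (367 to 448 against 330 to 341) values were higher in every adult library. The δ-cell (141 to 183 against 151 to 167), acinar (371 to 423 against 367 to 377), β-cell (540 to 595 against 409 to 575), mesenchymal (173 to 222 against 182 to 190), immune (19.1 to 27.6 against 21.5 to 31.3) and proliferation (187 to 218 against 201 to 224) sums overlapped between ages. By edgeR 12.3% of all sites were Up and 6.63% Down. The β-cell list held 9 Up and 1 Down of 46 sites (19.6% and 2.17%) and the α-cell list 9 and 2 of 53 (17% and 3.77%). The endothelial list held 9 and 1 of 51 (17.6% and 1.96%) and the duct list 4 and 5 of 43 (9.3% and 11.6%). For the acinar list these were 4 and 6 of 60 (6.67% and 10%), and for the δ-cell list 1 and 3 of 10 (10% and 30%). The mesenchymal list held 5 and 4 of 39 (12.8% and 10.3%), the proliferation list 0 and 2 of 23 and the immune list 0 and 1 of 7. Start sites and all sites of the duct list thus moved in opposite directions, and the part of these shifts in the Up and Down calls of the 10 genes was not tested.

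Ins1 lies in a gene-poor stretch, with the nearest listed genes, Mir3584 and Xpnpep1, 1509731 and 907387 bp away. Of its 28 sites, 21 had a negative log2 fold change and 9 were Down (32.1%, against 6.63% of all sites). The share of negative values over all sites was not counted. The change was largest 197687 bp upstream, where adults had 0.271, 0.779 and 0.773 CPM and P10 2.09, 3.71 and 2.96 CPM. The log2 fold change was -2.28 ± 0.46 (SE, edgeR adjusted p = 0.00152), at a site with as few as 3 counts in an adult library. The closest site outside the gene, 9213 bp upstream, had 11.7, 8.18 and 6.06 CPM in adults and 26.5, 13.6 and 17.9 CPM in P10, again without overlap (-1.15 ± 0.26, edgeR adjusted p = 0.00381). Without P10 replicate 1 its log2 fold change was -0.87, still called Down (edgeR adjusted p = 0.0312).

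The site 216156 bp upstream of Ins1 had the tightest libraries of these, at 10.9, 10.7 and 9.8 CPM in adults and 21.3, 19.5 and 20.5 CPM in P10. There P10 replicate 1 did not stand apart, and the log2 fold change was -0.96 ± 0.20 (edgeR adjusted p = 0.00233). A further site, 115436 bp upstream, also stayed Down in all 6 fits without 1 library (-0.83 ± 0.28). The Down sites 524072, 481863 and 120287 bp upstream and 183603 bp downstream each lost the call in at least 1 of those fits. The 2 Up sites lay far upstream, 725210 and 424903 bp from the start, with log2 fold changes of 0.74 and 0.60, and each held its call in 3 of the 6.

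Of the other 3 Ins2 sites, none was called. The site with the most counts, 51707 bp upstream, had 14.3 ± 2.96 CPM in adults and 15.3 ± 1.09 in P10 (mean ± SD, n = 3 per age), with a log2 fold change of -0.10 ± 0.21. The Iapp site 5532 bp past its start, beyond the end of the gene, had 61.4, 41.8 and 50.8 CPM in adults and 57.9, 27.2 and 28.2 CPM in P10. Only P10 replicate 1 reached the adult values there (0.44 ± 0.22, edgeR adjusted p = 0.245). Without that library the site was called Up (0.88, edgeR adjusted p = 0.00331). It was also called Up without Adult replicate 5 (0.57, edgeR adjusted p = 0.159).

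Pcsk1, the first-acting convertase of proinsulin, had the site with the largest rise. It lies 79843 bp downstream of the start, 33062 bp beyond the end of the gene (chr2:111177799-111178043, Rn5). Adult libraries gave 15.5, 10.0 and 13.1 CPM there, and P10 libraries 4.18, 3.28 and 2.70 CPM. Every adult value was more than the highest P10 value by a wide gap, and the log2 fold change was 1.92 ± 0.26 (SE, edgeR adjusted p = 2.02e-05). This site was also called Up with total reads as library sizes, at 1.05.

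A group of Up sites lay 441835, 442559 and 450186 bp upstream of Pcsk1, with log2 fold changes of 0.99 ± 0.24, 0.68 ± 0.18 and 1.27 ± 0.34. The strongest, 442559 bp away, had 43.7, 29.9 and 38.9 CPM in adults and 21.4, 25.0 and 24.1 CPM in P10. No adult library overlapped a P10 library at any of the 3 sites. The next listed gene on that side, tGap1, begins 1063212 bp from Pcsk1. A site nearer the gene, 42503 bp upstream, went the other way, from 8.75 ± 0.832 CPM in P10 to 4.61 ± 1.43 in adults (-0.92 ± 0.27, edgeR adjusted p = 0.0303). The site with the most counts, 51224 bp upstream, had 63.7 ± 8.32 CPM in adults and 58.5 ± 8.71 in P10 and was not called (0.12 ± 0.16). All 5 Pcsk1 calls held in each fit without 1 library.

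Pcsk2, the other convertase, had 0 Up sites of 16 by edgeR at an unadjusted p under 0.05, by limma voom or by DESeq2. It had 2 Down sites (12.5%, against 6.63% of all sites). The firmer lies inside the gene, 25775 bp from the start, with 1.45, 1.36 and 1.80 CPM in adults and 4.93, 3.99 and 2.85 CPM in P10 (-1.36 ± 0.36, edgeR adjusted p = 0.0142). The other, 127457 bp upstream, overlapped between ages (3.43, 1.85 and 2.58 CPM against 5.72, 3.35 and 4.39 CPM) and kept its call in 2 of 6 fits.

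Cpe had 8 Up and 1 Down sites of 25 (32% and 4%, against 12.3% and 6.63% of all sites). Of its sites, 17 lie in the gene. The site with the most consistent rise is 172985 bp downstream of the start, 69745 bp past the gene end (chr16:26958627-26959182, Rn5). It measured 52.7, 44.6 and 46.1 CPM in adults and 23.1, 22.9 and 24.4 CPM in P10. The spread within each age was small beside the gap, and the log2 fold change was 1.03 ± 0.17 (SE, edgeR adjusted p = 0.000132). At the site 123725 bp downstream the libraries read 10.8, 8.38 and 10.3 CPM against 2.88, 3.21 and 4.70 CPM (1.45 ± 0.27, edgeR adjusted p = 0.000704).

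Within the Cpe gene, the site 14333 bp from the start had 7.14, 4.09 and 2.19 CPM in adults and 1.63, 1.14 and 1 CPM in P10. The adult libraries spread widely but stayed above P10 (1.83 ± 0.39, edgeR adjusted p = 0.00256). Of the remaining Up sites, 28892, 35642, 64211, 69127 and 103697 bp downstream, the log2 fold changes ran from 0.43 to 0.80, and each lost its call in at least 2 of the 6 fits. The Down site, 179640 bp downstream, overlapped between ages (-0.64 ± 0.29, edgeR adjusted p = 0.19). The site with the most counts, 62870 bp into the gene, had 53.4 ± 6.60 CPM in adults and 40.9 ± 10.7 in P10 and just missed the limit (0.38 ± 0.18, edgeR adjusted p = 0.207).

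Of the 13 chromogranin A sites, 0 were lower by edgeR at an unadjusted p under 0.05, or Down by limma voom or DESeq2. By edgeR 3 were Up (23.1%, against 12.3% of all sites). They stood 33604, 50699 and 59679 bp downstream of the start, where the table's span of the neighbouring gene Itpk1, on the opposite strand, covers all 3. The first had 9.85, 8.96 and 11.6 CPM in adults and 5.53, 4.99 and 4.49 CPM in P10 (1.01 ± 0.25, edgeR adjusted p = 0.00837). The second had 7.14, 3.60 and 6.57 CPM against 3.35, 2.50 and 2.54 CPM (1.03 ± 0.31), and the third 6.87, 7.60 and 5.16 CPM against 3.53, 3.42 and 3.12 CPM (0.97 ± 0.28). The ages were apart at each, and each call held in all 6 fits without 1 library. The site with the most counts, 67463 bp downstream, had 40.5 ± 7 CPM in adults and 31.3 ± 9.49 in P10 and was not called (0.37 ± 0.19).

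Chromogranin B had 0 Up sites of 10 by edgeR at an unadjusted p under 0.05, by limma voom or by DESeq2. It had 2 Down sites (20%, against 6.63% of all sites), both upstream. At 61534 bp the libraries read 26.4, 19.2 and 20.2 CPM in adults and 34.4, 29.7 and 29.8 CPM in P10 (-0.51 ± 0.18, edgeR adjusted p = 0.0834). At 69375 bp they read 6.69, 5.94 and 4.90 CPM against 7.48, 9.63 and 9.89 CPM (-0.61 ± 0.25, edgeR adjusted p = 0.142). The adult libraries were lower at both, and the calls held in 5 and 3 of the 6 fits.

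Secretogranin II, the precursor of secretoneurin, had 4 Up and 1 Down sites of 20 (20% and 5%, against 12.3% and 6.63% of all sites). The site 9418 bp upstream had 22.2, 13.8 and 30.7 CPM in adults and 12.7, 13.1 and 12.7 CPM in P10. The P10 libraries were nearly level, the adult libraries spread widely, and Adult replicate 5 stood just above P10 (0.79 ± 0.23, edgeR adjusted p = 0.0284). At 41075 bp upstream the values were 16.5, 13.8 and 22.7 CPM against 13, 10.5 and 8.88 CPM (0.70 ± 0.23). The Down site, 33315 bp downstream, had 5.78, 3.12 and 3.48 CPM in adults and 8.97, 6.49 and 7.88 CPM in P10 (-0.91 ± 0.28, edgeR adjusted p = 0.0431), and alone among the 5 kept its call in all 6 fits. The Up sites 38891 and 52577 bp downstream, at 0.59 ± 0.26 and 0.78 ± 0.32, kept theirs in 1 and 2. The site with the most counts, 35692 bp downstream, showed 17.7 ± 1.72 CPM in adults and 17.2 ± 4.32 in P10.

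Secretogranin III had a call in each direction within the gene. The site 16061 bp from the start rose, with 2.89, 5.16 and 5.03 CPM in adults against 2.23, 1.78 and 1.48 CPM in P10 (1.23 ± 0.34, edgeR adjusted p = 0.021). The site 5691 bp from the start fell, with 1.27, 1.17 and 1.03 CPM against 4, 1.93 and 3.70 CPM (-1.47 ± 0.39, edgeR adjusted p = 0.0157). Both calls held in all 6 fits. The strongest Scg3 site, 27941 bp into the gene, had 28.7 ± 3.41 CPM in adults and 22.3 ± 7.98 in P10 and was not called (0.36 ± 0.21).

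**Figure D3:**
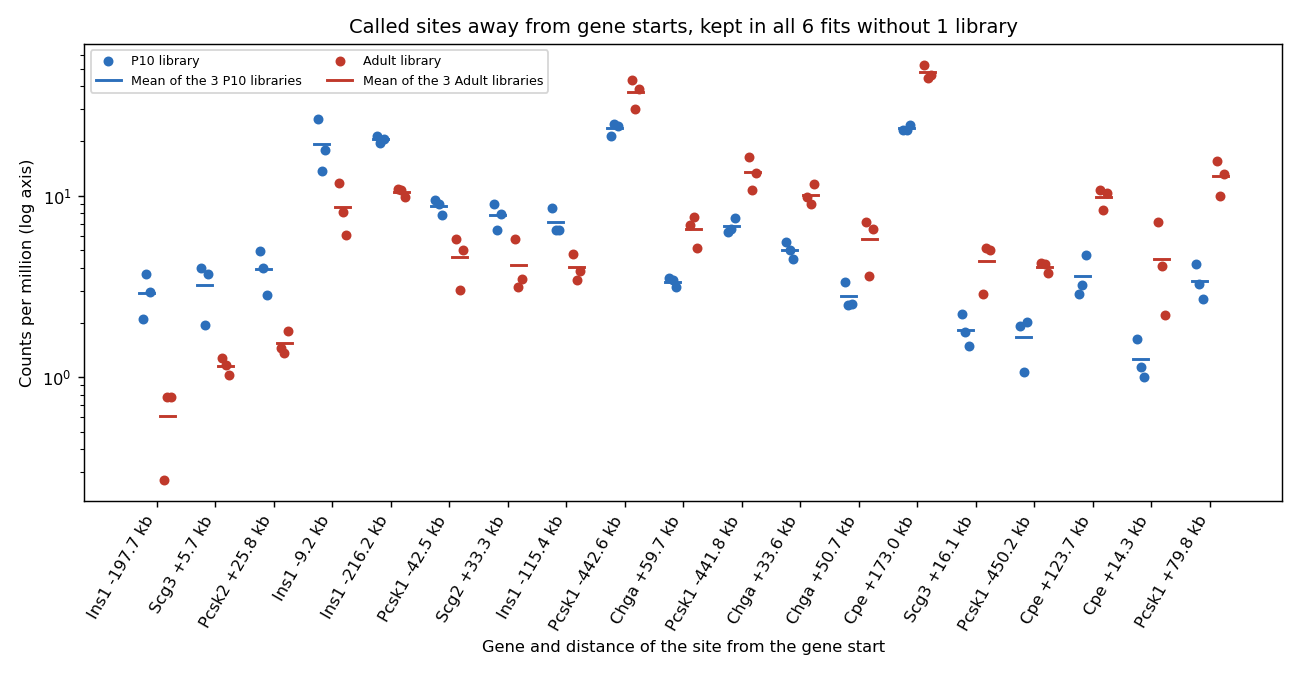
CPM on a log axis at the 19 called sites away from gene starts that kept their call in all 6 fits without 1 library, ordered from the largest fall to the largest rise, with gene and distance from the gene start along the horizontal axis. Dots are libraries and lines are the means of 3 libraries. The ages do not overlap at any of these sites, from Ins1 197687 bp upstream to Pcsk1 79843 bp downstream. The sites were chosen by their calls in these same libraries, so this follows largely from the choice.

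Of the 40 calls, 11 of 22 Up and 10 of 18 Down were made again in each of the 6 fits without 1 library. The same share over the calls of all sites was not counted. Among the 130 distal sites there were 21 Up and 14 Down calls, 16.2% and 10.8%, against 13.8% and 6.45% of all distal sites. The 14 proximal sites, which lay up to 9418 bp from a start, held 1 Up and 2 Down. These were 7.14% and 14.3%, where sites of all classes had 12.3% and 6.63%. The share among all proximal sites was not counted, so no difference is read from them. At the remaining 115 sites the log2 fold change ran between -1.13 and 0.66.

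The ratio of a site to the start site of its own gene is free of depth and of scaling, since both are read in the same library. It was taken for the 38 called sites other than the start sites, which were chosen by their call, so the ratios are a description, and with 3 libraries per age an exact two-sided permutation test cannot go below p = 0.1. The ratio was higher in every adult library than in every P10 library at 19 of 22 Up sites. Among these were both Up sites of Ins1, whose start site fell. Their log2 ratios rose by 1.43 and 1.25, where the sites themselves changed by 0.74 and 0.60. For the Down sites the ratio was lower in every adult library at 5 of 16 (11 of 16 without P10 replicate 1), and 11 overlapped, among them 7 of Ins1, whose start site fell as well.

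The log2 ratio of the Pcsk1 site 79843 bp downstream to its start site was -0.63 ± 0.23 in adults and -2.60 ± 0.28 in P10 (mean ± SD, n = 3 per age). For the Cpe site 172985 bp downstream it was 0.14 ± 0.27 and -0.96 ± 0.13, so its count was near that of the wider start site in adults and below it in P10. The Chga site 33604 bp downstream moved from -1.24 ± 0.06 in P10 to -0.32 ± 0.29 in adults. In the other direction, the Scg3 site 5691 bp into the gene went from -2.59 ± 0.47 in P10 to -4.11 ± 0.25 in adults.

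Counts summed over all sites of a gene gave a single value per gene, tested across 14776 genes, of which 10.5% were Up and 7.63% Down. Of the 10 genes, 3 were Down and 0 Up by edgeR; at an unadjusted p under 0.05, Cpe and Scg2 were also higher, and Cpe was called Up by limma voom and DESeq2. Ins1 had 192, 175 and 201 CPM in adults and 327, 241 and 285 CPM in P10, with a log2 fold change of -0.59 ± 0.13 (edgeR adjusted p = 0.0139). Ins1 stayed Down without any single library, from -0.69 to -0.49.

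Ins2 and Chgb were called less firmly. Ins2 had 29.5, 31.3 and 26.1 CPM against 44.5, 34.6 and 34.0 CPM (-0.38 ± 0.15, edgeR adjusted p = 0.142). It lost the call without Adult replicate 4 (-0.39), Adult replicate 6 (-0.31), P10 replicate 1 (-0.26) or P10 replicate 2 (-0.44). Chgb had 106, 94.8 and 117 CPM against 132, 124 and 130 CPM (-0.28 ± 0.11, edgeR adjusted p = 0.156) and lost it without Adult replicate 4 (-0.28), Adult replicate 5 (-0.21), P10 replicate 2 (-0.31) or P10 replicate 3 (-0.27).

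The other 7 genes did not pass. Their log2 fold changes were 0.34 for Iapp, 0.30 for Cpe, 0.27 for Scg2, 0.22 for Scg3, 0.21 for Pcsk1, 0.18 for Chga and -0.27 for Pcsk2, with total reads as library sizes turning the 6 positive values negative. P10 replicate 1 weighed on several. Without it Iapp (0.61), Scg3 (0.44), Cpe (0.39), Scg2 (0.34) and Chga (0.33) were called Up, and Pcsk2 moved to -0.05. Iapp, Cpe and Scg2 were also called Up without Adult replicate 5 (0.48, 0.33 and 0.38), and Pcsk2 Down without P10 replicate 3 (-0.36). Pcsk1, at 225, 213 and 226 CPM in adults and 191, 187 and 195 CPM in P10, had the narrowest spread and did not overlap between ages, yet was called in none of these fits.

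**Figure D4:**
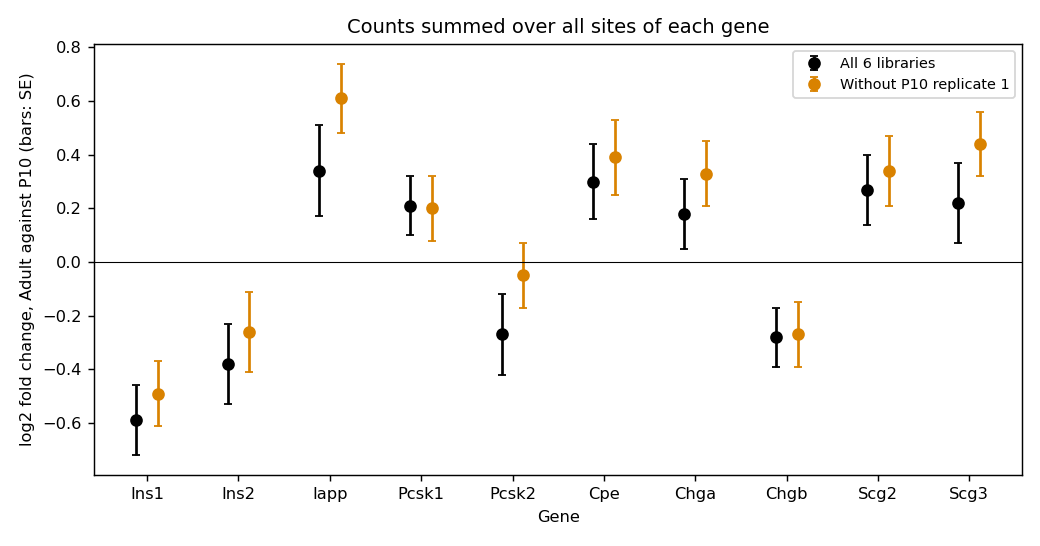
Log2 fold change, Adult against P10, of the counts summed over all sites of each gene, with bars for the SE, from all 6 libraries and without P10 replicate 1. Ins1 lies below 0 in both, at -0.59 and -0.49, while Iapp moves from 0.34 to 0.61 and Pcsk2 from -0.27 to -0.05.

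As a share of all counted cuts, the sites of the 10 genes held 14.5 ± 1.03 per 10000 in adults and 15.1 ± 2.31 in P10 (mean ± SD, n = 3 per age, exact two-sided permutation p = 0.9). The difference, adult minus P10, was -0.638 per 10000 and turned to 0.676 without P10 replicate 1, while it ran from -1.48 to -0.155 without any other library. The 2 insulin genes had 2.12 ± 0.0906 against 3.34 ± 0.553, with every adult library lower (exact permutation p = 0.1, the smallest this design allows). The other 8 genes had 12.4 ± 0.943 against 11.8 ± 1.76 (exact permutation p = 0.6).

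The rest of the granule pathway was read from a list of 19 further genes, 18 of which had sites. Their 187 sites held 21 Up and 14 Down calls (11.2% and 7.49%), close to the 12.3% and 6.63% of all sites, with a median log2 fold change of -0.03. The Up calls numbered 12 without P10 replicate 2 and 9 without P10 replicate 3, and the Down calls 8 without P10 replicate 2. Among the start sites of all genes, 2.73% were Up and 7.87% Down. Of the 18 start sites of the listed genes, 0 were Up by edgeR (also 0 at an unadjusted p under 0.05, by limma voom and by DESeq2). By edgeR 2 were Down, those of Nucb2 (-0.38 ± 0.17) and Qpct (-0.44 ± 0.19). Each of these calls held in 2 of the 6 fits without 1 library and neither with TMM factors from gene start sites, and limma voom called 1 of them, Qpct. Both of those genes also had an Up site farther away, at 1.15 and 1.23.

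Up sites without Down sites were found at Npy, a granule neuropeptide, and Ica1. The Npy site 69412 bp upstream had 11.8 ± 2.42 CPM in adults and 2.01 ± 0.516 in P10, a log2 fold change of 2.53 ± 0.29 (edgeR adjusted p = 1.34e-06). Down sites without Up sites were found at Scg5, the chaperone 7B2 of the Pcsk2 product (2 sites, -0.72 and -0.55), and at Dnajc3, a chaperone of the endoplasmic reticulum (3 sites, -0.95 to -1.33). Sites in both directions were found at Ptprn2 (7 Up, 3 Down), Slc30a8 (3 Up, 2 Down) and Pam (2 Up, 2 Down). Slc30a8 loads zinc into the insulin granule, and its site 18341 bp downstream of the start had 55.3 ± 14.4 CPM in adults and 24.2 ± 4.2 in P10 (1.19 ± 0.19, edgeR adjusted p = 0.000129). Pam, which amidates peptide ends, had Up sites at 0.81 and 0.68 and Down sites at -1.15 and -1.18. By edgeR (also 0 sites at an unadjusted p under 0.05, by limma voom and by DESeq2) no site was called at Vgf, Pcsk1n, Resp18, Ptprn, Cpd, Furin, Pcsk7, Slc18a2 or Ero1lb.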

How the data were processed

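ATAC-seq counts of 3 Adult and 3 P10 rat islet libraries were used. The authors aligned paired reads of 100 bases to Rn5 with BWA 0.7.13, dropped mitochondrial reads and reads of mapping quality under 30, called peaks with MACS2 2.1.1 on the libraries of each age pooled, merged the sets and deposited raw counts per site made with pyDNase. Removal of duplicate reads is not given in the sources used here. Peaks called on the same libraries that are compared favour sites open in either age.

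Of 101941 entries, 338 were second listings of a site under another gene, and each of the 101603 sites was tested once. The symbol column was blank in 6899 entries, and 809 of their 833 gene identifiers matched RefSeq. Counts were fitted with edgeR 4.0.16 (glmQLFit, glmQLFTest, TMM, no filter, age as the only term, Benjamini-Hochberg over all sites), in R 4.3.3, and called at p under 0.05 and FDR under 0.2. SEs were taken as the log2 fold change divided by the square root of F. Gene totals were counts summed by gene identifier and tested likewise. Log2 ratios between sites used counts plus 0.5. Alternatives were limma voom (limma 3.58.1), DESeq2 1.42.0, other scales, a low-count filter, FDR under 0.05 and fits without each library. The fit was also run on simulated counts without a shift of any single library. That run cannot speak to P10 replicate 1 or to the choice of scale.

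The text names all gene start sites, all called sites and the site with the most counts of each gene, those of the further granule genes with a called site, and markers by list. Members and lists were chosen with earlier results of these data known. Promoters and their letters are from RefSeq (GRCr8) and were aligned with Biopython; site coordinates are Rn5, of which no genome was used here.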

Additional observations from a re-analysis of the deposited data

How the results depend on the processing

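No paired analysis was possible because the Adult libraries are numbered 4 to 6 and the P10 libraries 1 to 3, so the ages share no replicate number. With 3 libraries per age and 7916919 to 21168463 counted cuts, sites with few counts carry the largest errors.

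The low-count filter and median-of-ratios size factors kept the direction and the side of the limits of all 56 named sites and all 10 gene totals, and DESeq2 and limma voom changed no direction. Cpe gene totals were called Up with limma voom (0.31) and DESeq2 (0.30). At FDR under 0.05 the 10 genes had 13 Up and 10 Down sites, the further granule genes 11 and 3, and all sites 7177 and 1945. The symbol column was the rule for choosing sites, and the sites found by gene identifier were added to it after seeing the data; the symbol column alone gave 7 Up and 16 Down sites. Over all sites the Down calls were 10732 with column sums and 4414 with TMM on start sites. Pcsk2 gene totals were called Down with column sums (-0.36).

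Total reads as library sizes moved the calls most. They gave 2 Up and 95 Down sites of the 10 genes, 2 and 128 of the further granule genes, and 1062 and 61663 of all sites. Gene totals turned negative for Iapp (-0.55), Pcsk1 (-0.62), Cpe (-0.55), Chga (-0.69), Scg2 (-0.59) and Scg3 (-0.66), and Pcsk2 was called Down (-1.14). Named sites that turned negative, by distance from the start, were those of Ins1 at 725210 bp (-0.05) and 424903 bp (-0.24), Iapp at 616 bp (-0.65) and 5532 bp (-0.47), Pcsk1 at 51224 bp (-0.74) and 442559 bp (-0.15), Cpe at 28892 bp (-0.22), 35642 bp (-0.15), 62870 bp (-0.49), 64211 bp (-0.27), 69127 bp (-0.41) and 103697 bp (-0.01), Chga at 168 bp (-0.75) and 67463 bp (-0.52), Scg2 at 52577 bp (-0.07), 38891 bp (-0.30), 35692 bp (-0.85), 207 bp (-0.78), 9418 bp (-0.07) and 41075 bp (-0.18), and Scg3 at 27941 bp (-0.53) and 341 bp (-0.74). Near-zero sites also changed sign with TMM on start sites (Pcsk1 start 0.03, Cpe start 0.04) or column sums (Scg2 at 35692 bp, -0.06).

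Leaving out 1 library at a time, the Up sites of the 10 genes ranged from 13 to 32, the further granule genes from 9 to 28 Up and 8 to 16 Down, and all sites from 7973 to 13232 Up and 3285 to 7215 Down. Gene totals ranged from -0.45 to -0.26 for Ins2, 0.22 to 0.61 for Iapp, -0.38 to -0.05 for Pcsk2, 0.21 to 0.39 for Cpe, 0.11 to 0.33 for Chga, -0.36 to -0.21 for Chgb, 0.14 to 0.38 for Scg2 and 0.07 to 0.44 for Scg3. Sites not called that changed sign were Ins2 at 51707 bp (-0.24 to 0.05), Pcsk1 at 947 bp (-0.49 to 0.22) and 435 bp (-0.18 to 0.04), Cpe at 332 bp (-0.27 to 0.11), Chga at 168 bp (-0.01 to 0.20) and Scg2 at 35692 bp (-0.11 to 0.25) and 207 bp (-0.10 to 0.33). Down sites whose ratio to the start site did not overlap numbered 5 to 11. The cause of these shifts was not tested.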
